A study of Mus musculus with 3 samples.

Results

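The genes of central carbon metabolism and itaconate synthesis were examined as a set of 54 members, named one by one by symbol, out of 55536 mouse genes in the deposited quantification. They comprise 3 genes of the GLUT sugar transporter family, 16 genes of glycolysis, 2 genes of the bifunctional enzyme that sets fructose-2,6-bisphosphate, 4 genes of lactate formation and export, 5 genes of pyruvate dehydrogenase and its kinases, 7 genes of the pentose phosphate pathway, 12 genes of the mitochondrial tricarboxylic acid (TCA) cycle, the cytosolic enzymes Idh1 and Mdh1, the itaconate enzyme Acod1, and 2 genes of citrate export. The samples were 3 libraries of polyadenylated RNA from C57BL/6J macrophages grown from bone marrow, which the labels number as biological replicates 1, 2 and 3 of one group, after 180 min with 100 ng/mL of a stimulus. It is lipid A, the membrane anchor of bacterial lipopolysaccharide, in the description, but lipoprotein A in the source name and treatment field. Age and sex were not collected and all 3 libraries carry one donor identifier, so the spread between replicates may be technical. No unstimulated group was analysed here, so no response to the stimulus can be read from these values, which set genes against each other within a library and replicates against each other.

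Glycolysis splits glucose into pyruvate in the cytosol, and the pentose phosphate pathway branches from it at glucose-6-phosphate to give NADPH and ribose. Pyruvate is either reduced to lactate and exported or oxidised by pyruvate dehydrogenase to feed the TCA cycle in mitochondria. Macrophages exposed to bacterial products are known for high glycolysis and for making itaconate, an antibacterial and regulatory acid formed from the TCA intermediate cis-aconitate by the product of Acod1.

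The libraries held 24450338, 34641026 and 60595742 expected counts (estimated fragment counts) of mouse genes in replicates 1, 2 and 3, and the members took 0.966%, 0.904% and 0.919% of them. All 10 macrophage markers were detected, whereas 0 of 6 erythroid, 0 of 5 stromal, 0 of 5 muscle and fat, 1 of 6 T cell, 1 of 5 B cell and 2 of 8 dendritic cell markers were. Of 12 neutrophil markers 5 were detected, with summed levels of 161, 778 and 102 TPM in replicates 1, 2 and 3 and Ly6g at 0, and the megakaryocyte list, with 2 of 5 detected and led by Pf4, summed to 325, 1013 and 229 TPM. An annotated ribosomal RNA entry took 2.09%, 1.89% and 8.40% of the counts. Replicate 2 was thus highest in the neutrophil and megakaryocyte sums and replicate 3 in ribosomal RNA. Of the detected neutrophil markers Csf3r went the other way, at 67.8, 48.7 and 46.6 TPM in replicates 1, 2 and 3. The macrophage sum, at 29632.6, 19585.6 and 24052.5 TPM, was lowest in replicate 2. The small dendritic cell, B cell and stromal sums were highest in replicate 2, and the T cell, erythroid, and muscle and fat sums were not. Where a member differed in these replicates, the part of any of these was not tested. In bulk RNA, fewer cells of a type and less RNA per cell cannot be told apart.

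Levels are given in TPM (a share of all transcripts that scales each gene for its length). Detection meant at least 1 TPM in every replicate, which 52 of the 54 members reached, against 18.1% of all mouse genes and 42.6% of protein-coding genes. The exceptions were Slc2a3 and Pdk4. The median over all 54 members stood at 52.3 ± 2.42 TPM (SD, n = 3), against 14.6 ± 0.535 TPM for the median of the 10026 detected genes. Of the 54 members 15 reached 100 TPM in every replicate, against 1142 of the 10026 detected genes. Mean levels of detected members ran from 1850.0 ± 286 TPM for Acod1 down to 2.14 ± 0.788 TPM for Pdk2 (SD, n = 3 each), as the plot of every member by replicate shows.

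**Figure D1:**
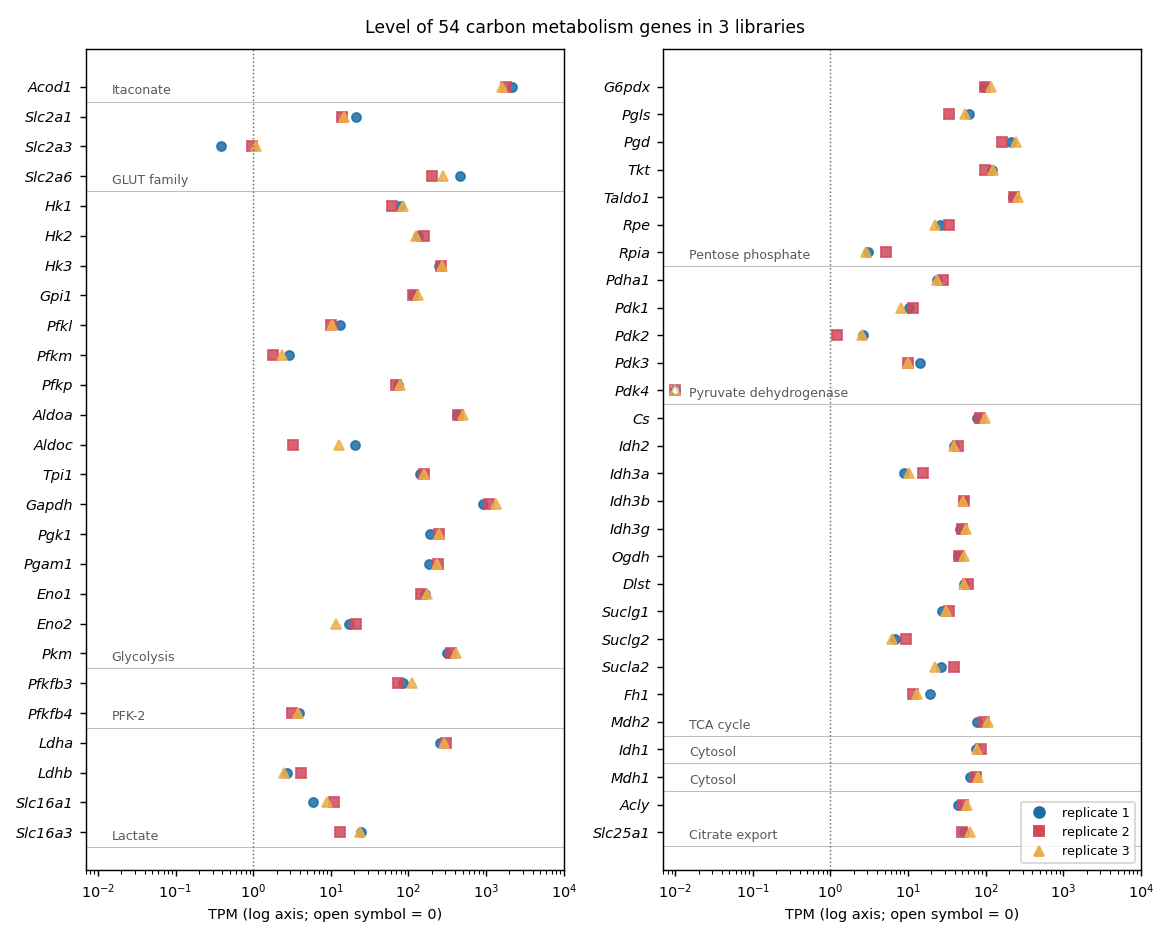
Level of each of the 54 members (TPM, log axis) in replicates 1, 2 and 3, grouped by pathway, with the detection threshold of 1 TPM as a dotted line. Acod1 and Gapdh sit at the right, Pdk4 has open symbols because it had 0 counts in every library, and for most members the 3 symbols overlap.

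Acod1, which encodes cis-aconitate decarboxylase (chromosome 14, 103046977 to 103056573, + strand, in mm10 positions as throughout), was the most abundant member, at 2161, 1793 and 1596 TPM in replicates 1, 2 and 3. Its mean stood at percentile 99.4 of the detected genes. Cs, which encodes citrate synthase, the enzyme that feeds the TCA cycle (chromosome 10, 128337734 to 128362479, + strand), had 77.8, 85.7 and 97.2 TPM. In the first quantification Acod1 was highest and Cs lowest in replicate 1, and the reverse held in replicate 3. In the second, made directly from the reads, both were highest in replicate 2. There Acod1 had 1577, 1742 and 1342 TPM and Cs 55.0, 78.7 and 77.6 TPM. The log2 ratio of Acod1 to Cs was 4.41 ± 0.38 in the first quantification and Acod1 was higher in all 3 replicates, a mean ratio of 21.2-fold. In the second the log2 ratio was 4.47 ± 0.36. All of Acod1 was assigned to 1 transcript, the protein-coding Acod1-201, in every library and in both quantifications. Acod1-201 spans the whole gene, and if it is the only annotated transcript this share is fixed in advance.

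Such ratios were formed for 31 pairs of members as log2((TPM + 0.1)/(TPM + 0.1)) in each replicate, which understates ratios of low genes. Below, values after ± on the log2 scale are SDs over 3 replicates, and a pair is called apart where all 3 replicates lay on one side and the mean exceeded its SD. With 3 replicates, the exact permutation test that flips signs (two-sided) cannot give less than p = 0.25, so no pair can pass a threshold of 0.05. The pairs on one side in every replicate had that p, which was 0.267 after Benjamini-Hochberg adjustment over the 31 pairs. In all, 29 of 31 pairs were apart, 23 of them by more than 2-fold on average, and 26 of the 28 pairs whose members were both detected were apart. The pairs were chosen with earlier results of these data known, and no share was formed over pairs of other genes. The count thus describes these pairs and shows nothing particular to the members. The pair of Pdk4 with Pdk3 is among the 29, but its ratio is set by the added 0.1 TPM and is not given.

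**Figure D2:**
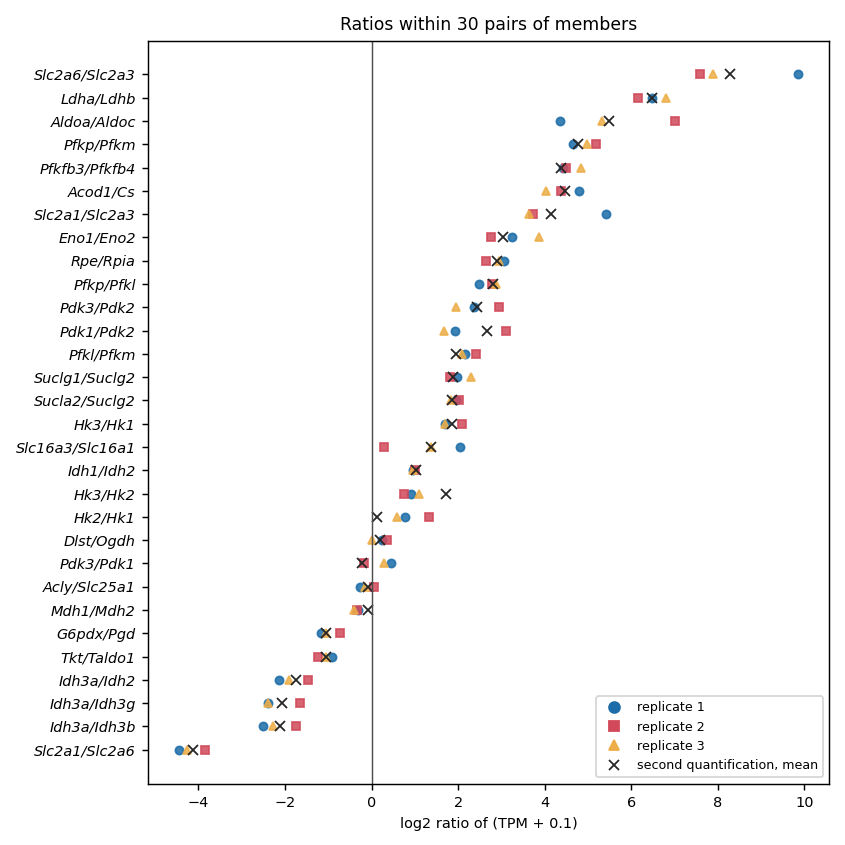
Log2 ratio of (TPM + 0.1) for each pair of members except the pair with Pdk4, with the 3 replicates as coloured symbols and the mean of the second quantification as a cross. Slc2a6/Slc2a3 and Ldha/Ldhb lie farthest to the right and Slc2a1/Slc2a6 farthest to the left, while Hk2/Hk1, Hk3/Hk2 and Mdh1/Mdh2 are among the pairs whose cross lies outside the range of the replicates.

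Among the sugar transporters, Slc2a6 was the abundant one. Slc2a1, which encodes the plasma membrane glucose transporter GLUT1 (chromosome 4, 119108711 to 119137983, + strand), had 20.9, 14.0 and 14.7 TPM in replicates 1, 2 and 3. Slc2a6, whose product GLUT6 lies on lysosomal membranes (chromosome 2, 27021363 to 27027998, minus strand), had 456, 202 and 282 TPM. Every Slc2a1 value was far under every Slc2a6 value, with a log2 ratio of -4.18 ± 0.30, and replicate 1 was highest for both. Slc2a3, which encodes GLUT3, stood at 0.390, 0.960 and 1.09 TPM and passed the detection threshold in replicate 3 alone. Slc2a6 made up 94.5 ± 1.22% of the summed TPM of the 3 genes (SD, n = 3).

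Of the hexokinases, which phosphorylate glucose on entry, Hk3 was the most abundant in every replicate. Hk3 (chromosome 13, 55005985 to 55021385, minus strand) had 250.2, 265 and 271 TPM, Hk2 (chromosome 6, 82725025 to 82774454, minus strand) had 132, 157 and 127 TPM and Hk1 (chromosome 10, 62268855 to 62379908, minus strand) had 77.1, 62.2 and 84.1 TPM in replicates 1, 2 and 3. The 3 ranges did not overlap, and Hk3 gave 55.1 ± 0.967% of the summed level (SD, n = 3). Hk3 exceeded Hk2 by 0.92 ± 0.17 and Hk1 by 1.82 ± 0.23 on the log2 scale. Whether the other two were apart depended on the quantification: the log2 ratio of Hk2 to Hk1 was 0.90 ± 0.38 from the alignment and 0.13 ± 0.34 in the second quantification, made directly from the reads, where Hk2 stood at 61.3, 93.7 and 70.0 TPM. On protein-coding transcripts alone it was 0.20 ± 0.34. The quantifications differed in Hk2-202, a noncoding processed transcript of 594 bases over the 3′ end of the gene, which took 39.1, 40.4 and 35.5% of Hk2 in replicates 1, 2 and 3 of the first quantification and 0.0226 ± 0.0391% in the second (SD, n = 3). Hk3 over Hk2 was 1.72 ± 0.13 in the second quantification, so Hk3 led under both.

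Gpi1, which encodes glucose-6-phosphate isomerase, had 113, 113 and 131 TPM. Phosphofructokinase, which commits sugar to glycolysis, was mostly the platelet type. Pfkp (chromosome 13, 6579768 to 6648777, minus strand) had 73.6, 69.0 and 76.9 TPM, Pfkl, the liver type, had 13.1, 9.97 and 10.3 TPM, and Pfkm, the muscle type, had 2.85, 1.79 and 2.35 TPM. These ranges did not overlap, and Pfkp made up 84.5 ± 1.98% of the sum. Its log2 ratio was 2.72 ± 0.21 over Pfkl and 4.94 ± 0.28 over Pfkm. The regulators showed a like imbalance. Pfkfb3, one of the genes for the enzyme that makes and removes fructose-2,6-bisphosphate, the activator of phosphofructokinase, had 86.2, 73.0 and 111 TPM, against 3.90, 3.13 and 3.80 TPM for Pfkfb4. Pfkfb3 gave 96.1 ± 0.538% of the pair's sum, with a log2 ratio of 4.59 ± 0.21.

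**Figure D3:**
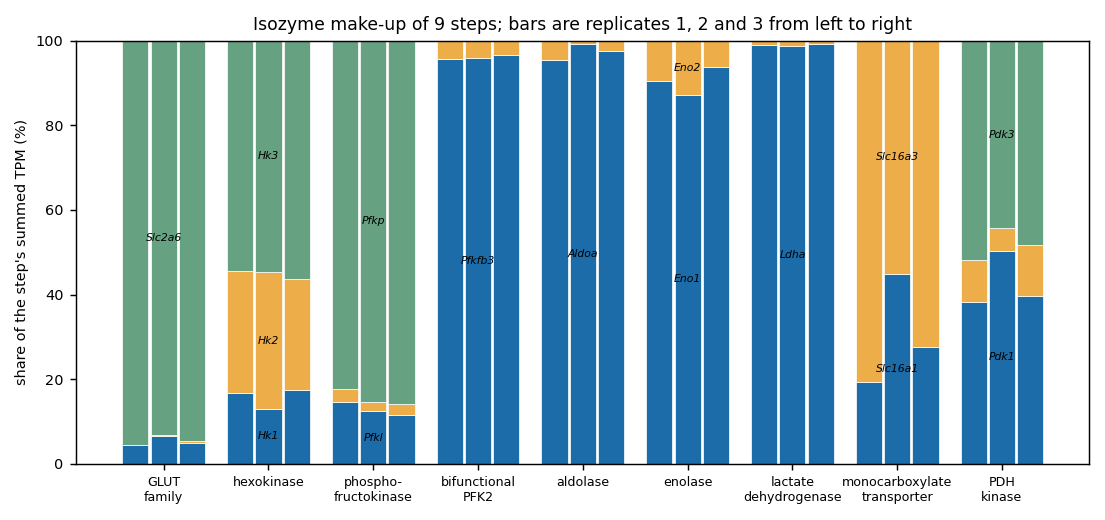
Share of each isozyme or family member in the summed TPM of its step (%), for 9 steps, with the bars of each step standing for replicates 1, 2 and 3. Slc2a6, Pfkp, Pfkfb3, Aldoa, Eno1 and Ldha fill most of their bars, whereas hexokinase, the monocarboxylate transporters and the pyruvate dehydrogenase kinases are split between genes, and the share of Slc16a1 is largest in replicate 2.

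Aldolase, which splits fructose-1,6-bisphosphate, came mainly from Aldoa. Aldoa (chromosome 7, 126795234 to 126800751, minus strand) had 423, 436 and 510.2 TPM and Aldoc 20.7, 3.28 and 12.7 TPM in replicates 1, 2 and 3. Aldoc was the most variable detected member, with a coefficient of variation of 71.3%, highest in replicate 1 and lowest in replicate 2. The log2 ratio of Aldoa to Aldoc was 5.56 ± 1.35.

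Of the 6 members that turn glyceraldehyde-3-phosphate into pyruvate, 5 reached at least 100 TPM in each library, all but Eno2. Tpi1, for triose-phosphate isomerase, had 143, 158 and 158 TPM. Gapdh, for glyceraldehyde-3-phosphate dehydrogenase (chromosome 6, 125161715 to 125166467, minus strand), had 919, 1079 and 1330.4 TPM and was the second most abundant member. The second quantification gave 556, 811 and 806 TPM, lower in every replicate. A noncoding processed transcript of 483 bases, Gapdh-208, took 13.6, 23.7 and 32.8% of Gapdh in the first quantification and 1.46, 0.223 and 1.21% in the second, and the protein-coding transcripts alone gave 830 ± 52.9 TPM (SD, n = 3) in the first. Pgk1, for phosphoglycerate kinase, had 192, 247 and 249.6 TPM. Pgam1, for phosphoglycerate mutase, had 186, 240.4 and 235 TPM. For both of these genes replicate 1 was lowest and the other two were close. Eno1, for the ubiquitous enolase, had 163, 145 and 171 TPM, against 17.1, 21.4 and 11.6 TPM for Eno2, the enolase known from neurons. Eno1 gave 90.4 ± 3.28% of enolase TPM, and its log2 ratio to Eno2 was 3.29 ± 0.56. Of Eno2 49.9% was assigned to protein-coding transcripts and the rest mostly to retained-intron ones.

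Pkm encodes pyruvate kinase, the last enzyme of glycolysis (chromosome 9, 59656368 to 59679375, + strand), and had 316, 359 and 405 TPM. Its transcripts include one of a pair of neighbouring exons of equal length, 167 bases each, which give the M1 form (upstream exon) or the M2 form (downstream exon) of the enzyme. M1 is known from muscle and other differentiated tissues, and M2 from proliferating and immune cells. Both exons are shown because they separate the M1 form from the M2 form, on the + strand of GRCm38 (mm10). Capitals mark the 64 sites where they differ and lower case the rest, an identity of 61.68%.
Pkm-201, chr9:59675568-59675734 (M2 exon): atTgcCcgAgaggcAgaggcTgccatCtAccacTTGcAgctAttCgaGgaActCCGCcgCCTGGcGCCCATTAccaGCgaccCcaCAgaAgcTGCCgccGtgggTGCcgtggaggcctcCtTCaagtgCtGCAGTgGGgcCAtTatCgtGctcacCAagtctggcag
Pkm-202, chr9:59675029-59675195 (M1 exon): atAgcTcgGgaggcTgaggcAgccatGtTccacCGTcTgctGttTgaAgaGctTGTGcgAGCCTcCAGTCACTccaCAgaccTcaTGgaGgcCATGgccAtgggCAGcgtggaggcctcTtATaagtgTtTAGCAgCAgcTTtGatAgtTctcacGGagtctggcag
Pkm-201, which carries the M2 exon, took 85.6, 76.8 and 82.0% of Pkm in replicates 1, 2 and 3, and Pkm-202, which carries the M1 exon, took 12.5, 19.9 and 16.4%. The M2 transcript was the larger in every replicate, at 81.4 ± 4.42%, against 16.3 ± 3.71% for the M1 transcript (SD, n = 3). The second quantification gave 79.9 ± 3.56% and 17.1 ± 3.08%. The transcripts also differ at their ends, being 2432 and 2041 bases long with 11 exons each, so the shares do not rest on these exons alone.

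Lactate dehydrogenase, which reduces pyruvate to lactate, was almost wholly the A subunit. Ldha (chromosome 7, 46841475 to 46855627, + strand) had 253, 304 and 288 TPM, against 2.76, 4.19 and 2.49 TPM for Ldhb. Ldha made up 98.9 ± 0.252% of their sum, and the log2 ratio was 6.47 ± 0.33. The monocarboxylate transporter genes among the members, whose products carry lactate across the plasma membrane, were less one-sided. Slc16a3, for MCT4, had 24.4, 13.3 and 23.5 TPM, against 5.85, 10.8 and 9.00 TPM for Slc16a1, for MCT1. Slc16a3 was higher in every replicate, but in replicate 2 it was at its lowest while Slc16a1 was at its highest, so the values came close there. The log2 ratio was 1.24 ± 0.88; without replicate 3 it was 1.17 ± 1.24 over the remaining 2 replicates, no larger than its SD.

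Pdha1, which encodes the E1 alpha subunit of pyruvate dehydrogenase, had 23.6, 28.6 and 23.5 TPM. The pyruvate dehydrogenase kinases, which inhibit it, were led by 2 genes. Pdk3 had 14.1, 10.1 and 10.04 TPM and Pdk1 10.4, 11.4 and 8.24 TPM in replicates 1, 2 and 3. The order of this pair changed between replicates, Pdk1 being the higher in replicate 2 alone, with a log2 ratio of 0.18 ± 0.32, smaller than its SD. The pair was apart with Pdk3 higher without replicate 2 (0.36 ± 0.11) and on protein-coding transcripts alone (0.88 ± 0.42), whereas the ratio was -0.22 ± 0.34 in the second quantification and -0.84 ± 0.26 on counts not scaled to length. Pdk2 had 2.66, 1.23 and 2.52 TPM, under both. The log2 ratio of Pdk1 to Pdk2 was 2.24 ± 0.77 and that of Pdk3 to Pdk2 2.42 ± 0.50. Pdk4 had 0 counts in each of the 3 libraries, which allows a share of up to 1.23e-05%, 8.66e-06% and 4.95e-06% of the counts in replicates 1, 2 and 3. The second quantification placed it at 0.138, 0.0118 and 0 TPM.

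In the oxidative branch of the pentose phosphate pathway, which makes NADPH, the third enzyme was the most abundant. G6pdx, for glucose-6-phosphate dehydrogenase (chromosome X, 74409483 to 74429194, minus strand), had 94.9, 97.3 and 118 TPM, and Pgd, for 6-phosphogluconate dehydrogenase (chromosome 4, 149149991 to 149166771, minus strand), had 214, 161 and 245 TPM. G6pdx was lower than Pgd in every replicate, with a log2 ratio of -0.98 ± 0.23, and replicate 2 was the closest. Pgls, for 6-phosphogluconolactonase, had 60.5, 33.7 and 55.0 TPM, with replicate 2 well under the other two. In the non-oxidative branch, which interconverts sugar phosphates, Tkt, for transketolase (chromosome 14, 30548359 to 30574720, + strand), had 119, 98.0 and 125 TPM and Taldo1, for transaldolase (chromosome 7, 141392199 to 141402968, + strand), 223, 231 and 258 TPM. Tkt was the lower in every replicate, with a log2 ratio of -1.06 ± 0.17, but on counts not scaled to length the ratio was -0.011 ± 0.18, smaller than its SD. Rpe, for ribulose-phosphate epimerase, had 25.9, 33.6 and 22.4 TPM, against 3.03, 5.27 and 2.84 TPM for Rpia, the ribose-5-phosphate isomerase gene and the lowest of the pathway. The log2 ratio of Rpe to Rpia was 2.88 ± 0.21, and both were highest in replicate 2.

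Tkt stood apart in its transcripts, an observation made after its values were seen. Tkt-209, a noncoding processed transcript of 1962 bases, took 71.0, 70.7 and 65.9% of Tkt in replicates 1, 2 and 3 and 78.9, 80.8 and 77.9% in the second quantification. Tkt-201, the main protein-coding transcript, took 25.3, 22.1 and 27.7% and 18.6, 18.4 and 21.4%. All 3 replicates and both quantifications put the noncoding transcript first. By mean share in the first quantification Tkt was the single member led by a transcript that is not protein-coding, while in the second Pdk1, Idh3a and Eno2 were also led by such transcripts, Pdk1-208 at 35.1 ± 4.30%, a retained-intron transcript of Eno2 at 21.1 ± 0.837% and Idh3a-204, annotated for nonsense-mediated decay, at 55.8 ± 20.4%. The protein-coding transcripts of Tkt summed to 29.1 ± 6.91 TPM (SD, n = 3) of its 114 ± 14.2 TPM.

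Mdh2 and Cs had the highest means of the 12 TCA cycle members and Suclg2 the lowest. Idh3a, for the catalytic subunit of the NAD-dependent isocitrate dehydrogenase (chromosome 9, 54586334 to 54604661, + strand), had 8.87, 15.8 and 10.4 TPM. Its partner subunits were higher, with 50.6, 53.4 and 51.3 TPM for Idh3b and 46.8, 49.7 and 55.1 TPM for Idh3g. The Idh3a range lay wholly under the other two, with log2 ratios of -2.18 ± 0.39 to Idh3b and -2.14 ± 0.43 to Idh3g, and Idh3a was highest in replicate 2 while Idh3b hardly moved. Idh1, for the cytosolic NADP-dependent enzyme, had 75.9, 87.8 and 77.5 TPM, against 39.2, 43.7 and 39.7 TPM for Idh2, for the mitochondrial one. Their log2 ratio of 0.97 ± 0.03 had the smallest SD of the 31 pairs. Idh3a was also lower than Idh2, with a log2 ratio of -1.84 ± 0.34.

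Dlst and Ogdh, for the E2 and E1 subunits of the oxoglutarate dehydrogenase complex, were close. Dlst had 52.3, 59.3 and 52.3 TPM and Ogdh 44.4, 46.0 and 51.9 TPM. Dlst was the higher in each replicate, yet the log2 ratio was only 0.20 ± 0.18, close to 0 in replicate 3, and on protein-coding transcripts alone it was -0.032 ± 0.11, the other direction. Without replicate 1 it was 0.19 ± 0.25 and without replicate 2 it was 0.12 ± 0.16, smaller than the SD in both cases. Succinate-CoA ligase joins a shared alpha subunit to an ADP-forming or a GDP-forming beta subunit. Suclg1, for the alpha subunit, had 27.2, 33.3 and 31.0 TPM and Sucla2, for the ADP-forming subunit, 26.8, 38.6 and 22.5 TPM. Suclg2, for the GDP-forming subunit, had 6.82, 9.42 and 6.19 TPM, under both in every replicate. The log2 ratio of Sucla2 to Suclg2 was 1.94 ± 0.09 and that of Suclg1 to Suclg2 2.03 ± 0.25. Fh1, for fumarase, had 19.5, 11.6 and 13.2 TPM, highest in replicate 1. Mdh1, for the cytosolic malate dehydrogenase, had 63.0, 75.3 and 80.1 TPM, against 78.1, 95.5 and 107 TPM for the mitochondrial Mdh2. Mdh1 was lower in every replicate, with a log2 ratio of -0.36 ± 0.05, but the ratio was smaller than its SD in the second quantification (-0.08 ± 0.18) and on protein-coding transcripts alone (-0.027 ± 0.074).

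Citrate leaves mitochondria through the carrier encoded by Slc25a1 and is cleaved to acetyl-CoA by the product of Acly. Acly had 44.2, 51.2 and 57.1 TPM and Slc25a1 53.4, 49.5 and 63.7 TPM. The order changed between replicates and the log2 ratio of -0.13 ± 0.16 was smaller than its SD, so these genes were not separated. The ratio was -0.21 ± 0.08 without replicate 2, with Slc25a1 higher, but it was 0.076 ± 0.29 on protein-coding transcripts alone and 1.55 ± 0.26 on counts not scaled to length.

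By pathway, the median member of glycolysis stood at 144 ± 6.63 TPM, that of the pentose phosphate pathway at 103 ± 12.7 TPM and that of the TCA cycle at 44.0 ± 1.96 TPM (SD, n = 3 each). The TCA median was the lowest in every replicate, at 41.8, 44.8 and 45.5 TPM in replicates 1, 2 and 3, against 94.9, 97.3 and 118 TPM for the pentose phosphate pathway and 138, 151 and 145 TPM for glycolysis. Within glycolysis the 6 members from Gapdh to pyruvate had a median of 225 ± 31.3 TPM and the 10 members up to triose phosphate one of 97.2 ± 7.40 TPM. The pathways hold different numbers of minor isozymes, which lower a median, and protein-coding transcripts alone gave 117, 49.2 and 42.0 TPM for glycolysis, the pentose phosphate pathway and the TCA cycle, a fall for the pentose phosphate pathway that brought it near the TCA cycle. Of the 15 members at 100 TPM or more in every replicate, 10 were of glycolysis, 2 of the pentose phosphate pathway and 0 of the TCA cycle.

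Other genes of these pathways were taken from 6 lists holding 67 genes, of which 44 were detected. Of 25 further glycolysis genes 11 were detected, led by G6pc3, a glucose-6-phosphatase gene, at 18.6, 15.2 and 17.9 TPM, and Pgm1, for phosphoglucomutase, at 12.8, 13.7 and 15.4 TPM. Tissue-restricted genes, among them Slc2a2, Hkdc1, Pgk2, Gapdhs, Pklr and Fbp2, had 0 counts in all 3 libraries, as did Ldhc, the testis lactate dehydrogenase gene, Tktl2, a transketolase relative, and Sucnr1, for the succinate receptor. Of 4 further lactate genes 2 were detected, led by Bsg, for basigin, the chaperone of the monocarboxylate transporters, at 234, 240.2 and 262 TPM, followed by Slc16a7, for MCT2, at 17.5, 21.1 and 21.6 TPM. Bsg was thus higher in every library than Slc16a3 or Slc16a1. Slc16a7 was higher than Slc16a1 in every library, and higher than Slc16a3 in replicate 2 alone. Of 11 further genes of pyruvate metabolism 10 were detected, led by Mpc1 at 276, 317 and 234 TPM and Dld, for the shared E3 subunit of the dehydrogenase complexes, at 64.2, 83.4 and 53.4 TPM. Mpc1 encodes 1 subunit of the mitochondrial pyruvate carrier, and its partner Mpc2 stood at 31.1, 31.3 and 27.4 TPM, lower in every library. Of 7 further pentose phosphate genes 4 were detected, led by Prps2, for a phosphoribosyl pyrophosphate synthetase, at 16.6, 26.7 and 16.0 TPM, and Rbks, for ribokinase, at 6.90, 7.13 and 7.56 TPM. Of 15 further TCA genes 13 were detected, led by Glud1, for glutamate dehydrogenase, at 86.6, 104 and 105 TPM, and Sdha, for a succinate dehydrogenase subunit, at 88.1, 103 and 103 TPM. Succinate dehydrogenase is the enzyme that itaconate is known to inhibit. Of 5 further genes of the itaconate list 4 were detected, led by Auh at 8.18, 9.63 and 9.56 TPM and Acss1 at 6.05, 7.81 and 6.74 TPM, both far under Acod1.

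The spread between replicates of the members was near that of other genes. The median coefficient of variation of the detected members was 13.9%, against 16.5% for all detected genes, and it was smallest for Idh3b, at 2.82%. The biological coefficient of variation, edgeR's estimate of the spread beyond counting error, had a median of 18.7% over 53 members and of 21.3% over the 11611 genes tested. A chi-square test of the counts against equal rates in the 3 libraries called 49 of 53 tested members at an adjusted p under 0.05, against 77.5% of all genes tested. The members not called were Pdk1, Idh2, Idh3b and Dlst, with Benjamini-Hochberg adjusted p over all genes of 0.0737, 0.387, 0.487 and 0.140. At these depths small differences were called, such as that of Suclg1, with a coefficient of variation of 10.1%, and most genes of any kind departed from equal rates. Of the 52 detected members, 12 were highest in replicate 1, 18 in replicate 2 and 22 in replicate 3 (23.1%, 34.6% and 42.3%), against 30.4%, 43.9% and 25.7% of all detected genes, a difference that was not tested. It depended on the quantification. In the second, only Hk1, Pfkfb3, Aldoa, G6pdx, Pgd, Tkt and Slc25a1 of these 22 members were still highest in replicate 3. The rest of the 22 were highest in replicate 2 there, such as Gapdh (556, 811 and 806 TPM) and Pkm (224, 328 and 320 TPM). The shares of all detected genes were not formed for the second quantification.

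Larger departures were counted where 1 replicate lay at least 1.5-fold above or below both others, among the 52 detected members. Above both others in replicate 1 were 2 members, Aldoc and Slc2a6, against 3.37% of detected genes. Below both others in replicate 1 was Slc16a1, 1 member, against 2.44%. In replicate 2 the members above were Idh3a, Ldhb and Rpia, 3 in all, against 6.66% of detected genes. The members below in replicate 2 were Aldoc, Pdk2, Pgls and Slc16a3, 4 in all, against 3.52%. In replicate 3 there were 0 above and 0 below, against 0.977% and 4.49%. The 4 members in replicate 2 are 7.69% of those tested, above the background share, and the other counts were near or under theirs. The neutrophil and megakaryocyte marker sums were also highest in replicate 2, and their part in its departures was not tested. The 5 detected members with the largest coefficient of variation were Aldoc (71.3%), Slc2a6 (41.4%), Pdk2 (36.9%), Rpia (36.4%) and Idh3a (31.0%).

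**Figure D4:**
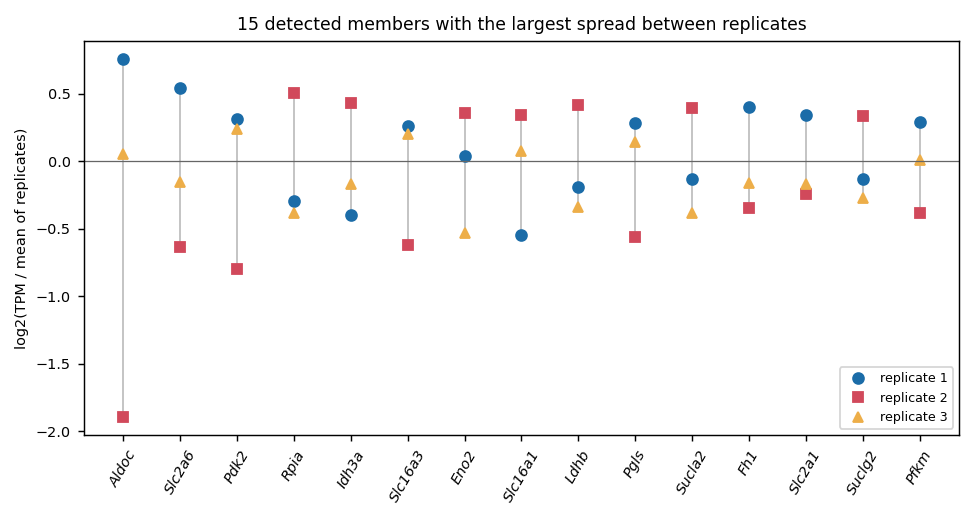
Log2 ratio of TPM to the mean of the 3 replicates for the 15 detected members with the largest coefficient of variation, largest at the left, with a grey line over the range. Replicate 2 is the lowest for Aldoc, Slc2a6, Pdk2, Slc16a3, Pgls and others and the highest for Rpia, Idh3a, Ldhb and Sucla2, so it marks an end of the range for all 15.

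The leading transcript took over 50% of its gene for 44 of the 52 detected members, Pkm, Tkt, Hk2 and Gapdh among them. The same count was not formed over all detected genes. Eno1-202, Ldha-202, Idh3b-201 and Aldoa-201 took 98.9 ± 0.505%, 98.7 ± 0.153%, 97.3 ± 1.29% and 84.6 ± 1.94% of Eno1, Ldha, Idh3b and Aldoa (SD, n = 3 each). For Hk3 it was Hk3-201, at 70.9 ± 4.02%, and Hk1 was split between Hk1-202 at 69.8 ± 3.81% and Hk1-201 at 23.7 ± 3.69%. In the second quantification Hk1-202 took 43.8 ± 7.58%, Hk1-201 24.5 ± 9.11% and Hk1-205, at 0.343 ± 0.593% in the first, 23.9 ± 2.75%. Pfkfb3 was shared between 3 protein-coding transcripts, whose split depended on the quantification: Pfkfb3-206, Pfkfb3-214 and Pfkfb3-220 took 33.7 ± 9.39%, 28.9 ± 3.63% and 29.9 ± 7.51% in the first and 51.8 ± 4.40%, 28.4 ± 3.88% and 5.04 ± 2.05% in the second. Slc16a3 had Slc16a3-201 at 40.7 ± 9.93%, Slc16a3-207 at 31.3 ± 9.86% and Slc16a3-202 at 20.3 ± 3.74%. Pdk1 had the protein-coding Pdk1-201 at 61.2 ± 20.7% and the noncoding Pdk1-208 and Pdk1-206 at 20.4 ± 9.55% and 14.9 ± 14.3% in the first quantification, against 31.1 ± 7.58%, 35.1 ± 4.30% and 26.3 ± 8.17% in the second, where a noncoding one led. For Suclg2 the assignment was unstable, with Suclg2-204 at 37.9, 45.2 and 100% and Suclg2-201 at 62.1, 54.8 and 0% in replicates 1, 2 and 3, and Suclg2-201 led in the second quantification at 69.5 ± 8.85%.

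**Figure D5:**
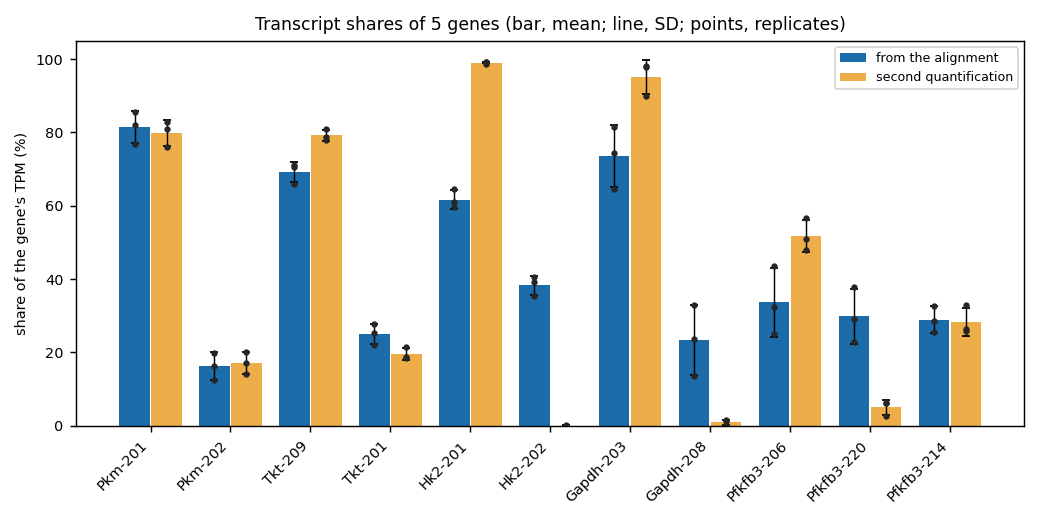
Share of 11 transcripts in the summed TPM of their gene (%), as mean (bar), SD (line) and replicates (points, n = 3), in the quantification from the alignment and in the second quantification made directly from the reads. Pkm-201 and Tkt-209 lead their genes in both, whereas Hk2-202, Gapdh-208 and Pfkfb3-220 lose most of their share in the second.

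Promoter sequences of RefSeq (GRCm38.p6, 250 bases before to 50 after a RefSeq start) matched 52 of the 54 members. For each member the start nearest to that of its leading transcript was used, or nearest to the gene start for Pdk4. For Tkt it lay 8478 bases from the start of the leading Tkt-209. For Slc16a3, G6pdx, Mdh1, Eno1 and Pkm the distance was 587, 314, 259, 244 and 208 bases. The letters ACGTG, the core of the element bound by hypoxia-inducible factors and part of the CACGTG box bound by other factors, were searched on both strands, where a CACGTG box counts once on each strand. They occurred in 23 of 52 member promoters (44.2%), against 26.2% of the promoters of detected genes and 19.6% of all 32851 promoters of the same length. By pathway they were found in 9 of 16 for glycolysis, 3 of 4 for lactate, 1 of 7 for the pentose phosphate pathway and 2 of 11 for the TCA cycle. These include Slc16a3 for lactate and G6pdx for the pentose phosphate pathway, whose promoter windows do not hold the start of the leading transcript. The letters TATAAA, searched on both strands, occurred in 3 of 52 (5.77%), those of Slc2a1, Eno2 and Acod1, against 6.97% of detected and 13.6% of all promoters. The median promoter held 21 CpG dinucleotides among members and among detected genes, and 7 among all promoters. The promoter of Acod1, the most abundant member, and that of Ldha, which had the most ACGTG matches of the members, are shown as the contrast in sequence type, with 2 and 30 CpG dinucleotides and with 1 and 5 matches. Both are on the + strand and capitals mark the matches to ACGTG (with the full box where both strands match) and to TATAAA.
Acod1, chr14:103046762-103047061: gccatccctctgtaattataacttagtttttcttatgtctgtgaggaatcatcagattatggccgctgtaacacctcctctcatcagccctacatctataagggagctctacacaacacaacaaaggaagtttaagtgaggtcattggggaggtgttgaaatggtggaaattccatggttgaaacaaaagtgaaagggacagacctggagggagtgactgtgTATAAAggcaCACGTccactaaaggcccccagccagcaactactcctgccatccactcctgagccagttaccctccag
Ldha, chr7:46845554-46845853: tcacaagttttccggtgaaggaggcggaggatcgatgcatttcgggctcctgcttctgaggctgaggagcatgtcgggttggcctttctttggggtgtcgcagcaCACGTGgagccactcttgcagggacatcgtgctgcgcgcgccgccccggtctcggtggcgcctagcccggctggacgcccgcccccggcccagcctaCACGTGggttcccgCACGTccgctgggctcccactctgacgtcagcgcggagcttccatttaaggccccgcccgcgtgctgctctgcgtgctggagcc
A match is a description of the letters and not a measured binding site, and no factor's binding was measured here.

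Some members share sequence with other genes. Exons of 17 members overlap those of another gene, 14 of them on the opposite strand, and no source used here states whether counting used strand. Neither this count nor the next was formed over all genes, so they show nothing particular to the members. The other gene reached 10% of the member's level or more for 4 members, Pfkm (with Senp1), Pfkp (with Pitrm1), Idh3b (with Nop56) and G6pdx (with Ikbkg), and Pfkm stood well under Senp1, which averaged 13.0 TPM. Near-copies were examined for Eno1, Pgam1 and Tpi1 only. Eno1b had 4.48, 2.54 and 2.51 TPM, against 163, 145 and 171 TPM for Eno1. The pseudogene Pgam1-ps2 had 10.3, 3.01 and 5.27 TPM, against 186, 240.4 and 235 TPM for Pgam1. In the second quantification Pgam1-ps2 had at most 0.0369 TPM. The pseudogene Tpi-rs11 had 2.35, 0.70 and 0 TPM, against 143, 158 and 158 TPM for Tpi1.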

How the data were processed

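Polyadenylated RNA was sequenced in 3 libraries of 1 group. For each, the authors deposited a gene and a transcript quantification from an alignment to the transcriptome, with expected counts, TPM, FPKM and, for transcripts, the percent of the gene's abundance, per the file headers. A second deposited transcript quantification, made directly from the reads, has TPM and estimated counts per transcript, per the file headers, and was summed per gene. Both use mm10 and GENCODE M21 annotation; for aligner, quantifiers and versions, no name is given in the sources used here. Replicates were not pooled.

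Members were matched by symbol to gene IDs. Of 1 symbol with 2 gene IDs, Aldoa, the higher was used. TPM was used as deposited, FPKM served an alternative detection count, and transcript shares were recomputed from transcript TPM. Expected counts were rounded, filtered with edgeR 4.0.16 filterByExpr (R 4.3.3), scaled with TMM, and tested against equal rates by chi-square with Benjamini-Hochberg adjustment over all 11611 genes. This was checked on simulated data with counting error alone, so the check does not cover replicates that differ beyond counting error. DESeq2 1.42.0 size factors were an alternative. Pair ratios used a pseudocount of 0.1 TPM and an exact sign-flip permutation test. With 1 group no condition contrast could be fitted. A count of 0 allows up to 3 counts of the library; this covers counting error only.

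The members, lists, pairs and tests were chosen with earlier results of these data known. The text names all members. Of the other pathway genes it names the 2 highest of each list and those with 0 counts, apart from some not reported here; Mpc2, Tkt-209 and Gapdh-208 were added after their values were seen. Transcripts of 10% or more are named for 13 members fixed by the same rule.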

Additional observations from a re-analysis of the deposited data

How the results depend on the processing

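Detection of 52 members held at 0.5 TPM and in the second quantification, with 51 at 1 FPKM and 46 at 5 TPM. Of 31 pairs 29 were apart, and 26 to 30 under each alternative run, with 26 of 28 where only detected members were paired. On counts scaled to library size but not to length the direction turned for Slc16a3/Slc16a1 (-0.074), Dlst/Ogdh (-0.51), Mdh1/Mdh2 (0.13), Pdk3/Pdk1 (-0.84) and Acly/Slc25a1 (1.55), and Tkt/Taldo1 (-0.011) was no longer apart. It also turned on protein-coding transcripts alone for Dlst/Ogdh (-0.032) and Acly/Slc25a1 (0.076), and in the second quantification for Pdk3/Pdk1 (-0.22). The median TPM moved by more than 1 SD in the second quantification (113 for glycolysis, 85.3 for the pentose phosphate pathway, 36.2 for the TCA cycle), on protein-coding transcripts (117, 49.2 and 42.0) and, for glycolysis and the TCA cycle, when rescaled without ribosomal RNA and mitochondrial entries (161 and 49.1). Leaving out replicates gave 141 to 148, 96.1 to 108 and 43.3 to 45.1 TPM for glycolysis, the pentose phosphate pathway and the TCA cycle. Members above in replicate 1 numbered 1 on counts scaled by TMM, 1 in the second quantification and 0 at a fold of 2; above in replicate 2, 6 in the second quantification and 0 at a fold of 2; below in replicate 1, 0 at a fold of 2; below in replicate 2, 2 in the second quantification and 2 at a fold of 2; below in replicate 3, 1 in the second quantification. Without one of the other replicates, counts above ran from 2 to 7, 4 to 7 and 1 to 6 in replicates 1, 2 and 3, and counts below from 1 to 4, 6 to 7 and 2 to 7. The cause of these moves was not tested, beyond the looser rule that fewer replicates give. The 49 members departing from equal rates became 49 to 51 under other settings and 39 to 44 on pairs of replicates. Protein-coding, rescaled and downward counts were chosen after seeing the data. No paired analysis was possible because the study has 1 group.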
